A study of Mus musculus with 122 samples.

Results

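The 5-week mixed bone marrow chimera set lung macrophages that had lost Cebpb beside wild-type macrophages grown from marrow in the same kind of recipient. The samples were taken by their labels: 4 libraries of CD45.2 cells derived from CD11cCre Cebpb knockout marrow (KO) and 3 libraries of CD45.1 wild-type cells (WT), which are 7 of the 122 samples of the series, with all genes in view. KO marrow came from CD11c +/Cre Cebpb flox/flox mice (Cebpbtm1.1Elgaz/J crossed to Tg(Itgax-cre,-EGFP)4097Ach/J), and WT marrow from B6.SJL-Ptprca-Pepcb/BoyJ mice without Cre, both C57BL/6. CD45.1/2 recipients were irradiated at 8 to 12 weeks of age, given marrow cells (66% KO and 33% WT) and enrofloxacin for 10 days, and their lungs were digested 5 weeks after transfer. The surface markers by which donor macrophages were isolated from the digest are not given in the sources used here. Values are set beside those of the same experiment 10 weeks after transfer (3 KO and 4 WT libraries) and of lavage alveolar macrophages from adult mice that were not chimeras, CD11c +/Cre Cebpb flox/flox (4 libraries) and CD11c +/Cre (3 libraries), where the controls carry Cre too.

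Several features limit the groups as a model. The Cre transgene is driven by the promoter of Itgax (CD11c), which dendritic cells use as well as alveolar macrophages. KO and WT donors differ in the floxed Cebpb alleles, in Cre, and in the congenic interval around Ptprc (CD45) on chromosome 1, and these cannot be told apart within the 5-week comparison. The labels do not say whether libraries came from separate recipients, so p-values measure the spread between the libraries fitted together, which may be technical. In bulk libraries, fewer cells of a type and less RNA per cell cannot be told apart.

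C/EBPβ is a basic leucine zipper transcription factor that binds DNA as a dimer, alone or with other C/EBP proteins. In fat cells it acts early in differentiation and activates the gene of the nuclear receptor PPARγ, above all the isoform PPARγ2, which starts from its own promoter downstream of that of PPARγ1. Alveolar macrophages clear surfactant, a lipid-rich film, and rely on GM-CSF, which signals through STAT5, and on PPARγ. When irradiation empties the airspace, marrow-derived monocytes enter the lung and take on the alveolar macrophage programme over the following weeks.

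The 5-week libraries held 9347444 to 12220570 counts in KO and 13414465 to 17834909 counts in WT, with 12895 to 13113 genes detected in KO and 13087 to 13579 in WT. A floor of 3 counts, in CPM (counts per 1000000 after TMM scaling), was 0.245 to 0.334 CPM in KO and 0.163 to 0.225 CPM in WT, which covers counting error only. Library correlations on log2 CPM were 0.974 to 0.983 among KO, 0.979 to 0.99 among WT and 0.934 to 0.961 between the groups. Mitochondrial genes took 0.173 to 0.262% of counts in KO and 0.105 to 0.197% in WT.

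As a summed list, markers of alveolar macrophages were present in both groups and lower in KO, and markers of dendritic cells were higher in KO. The 34 alveolar macrophage genes summed to 6922 to 10060 CPM in KO and 18030 to 22130 CPM in WT. The 13 dendritic cell genes summed to 4407 to 7469 CPM in KO and 1250 to 1429 CPM in WT, and none of them was at 0 in these libraries. Of 12 tested, 10 rose and 0 fell, a count that is 6 without WT replicate 2 or without WT replicate 3. Ccr7, the receptor that guides dendritic cells to lymph nodes, was at 2304, 1960, 3186 and 3548 CPM in KO, against 566, 520.1 and 430.1 CPM in WT (log2 fold change 2.44, SE 0.48, adjusted p 0.00299). Cd209a and Clec10a, lectins of monocyte-derived and conventional dendritic cells, rose by 2.26 and 1.69 on the log2 scale (adjusted p 0.00261 and 4.20e-04, edgeR). Xcr1 and Clec9a, which define the cross-presenting subset, differed by 1.47 and 0.99 with adjusted p 0.086 and 0.0728, so they did not pass in the main fit. Both passed in edgeR with the 7 libraries at 5 weeks fitted alone (adjusted p 0.00128 and 0.0255) and with replicate number as a block (0.0489 and 0.0404). Xcr1 also passed after thinning (edgeR, adjusted p 0.00919). Clec9a also passed in DESeq2 (adjusted p 0.0414) and without KO replicate 1 (edgeR, adjusted p 0.0283). The part these markers play in the results that follow was not tested.

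Lists of other cell types had lower sums. The neutrophil list summed to 21.9 to 71.9 CPM in KO and 66.8 to 165 CPM in WT, with the granule protease Elane at 0, and 2 of 8 tested fell and 0 rose (1 without KO replicate 4). The genes that fell were Mmp8 and S100a8, a calcium-binding protein of neutrophils and monocytes, at 3.43, 6.47, 5.22 and 1.43 CPM in KO and 15.2, 43.6 and 46.9 CPM in WT (log2 fold change −3.10, SE 0.44, adjusted p 2.71e-04). The lymphocyte list summed to 14.1 to 28.1 CPM in KO and 6.10 to 12.0 CPM in WT, with Ncr1 at 0, and 1 of its 7 tested genes rose, a call lost without any 1 library other than KO replicate 2. Epithelial genes summed to 676 to 904 CPM in KO and 316 to 354 CPM in WT with Sftpb at 0, and 2 of 10 rose (1 without WT replicate 2 or 3). One of these is Napsa, a protease gene that lung macrophages and dendritic cells also transcribe, at 482 ± 63.8 CPM in KO and 232 ± 38.1 CPM in WT (SD, n = 4 and 3). Stromal and endothelial genes summed to 72.5 to 105 CPM in KO and 60.8 to 66.7 CPM in WT with Pdgfra at 0, and 1 rose and 1 fell of 6 tested. The rise was lost without KO replicate 2 or 4 or any 1 WT replicate, and the fall without WT replicate 2. Erythroid genes summed to 51.2 to 181 CPM in KO and 23.1 to 124 CPM in WT, and none of 4 tested passed. Of 11 genes of eosinophils, mast cells and basophils, 6 were at 0 in every library, among them the eosinophil peroxidase Epx and the mast cell protease Cpa3, and the list summed to 3.45 to 7.43 CPM in KO and 7.89 to 9.33 CPM in WT.

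Cebpb itself (Ensembl ENSMUSG00000056501, chromosome 2, 167688915 to 167690432, GRCm38) was at 18.3, 18.1, 36.8 and 18.6 CPM in the 4 KO libraries, against 920.4, 915 and 941 CPM in the 3 WT libraries. Every KO library lay far below every WT library, and KO replicate 3 was the highest KO library. The log2 fold change was −5.34 (SE 0.48, adjusted p 2.23e-05, edgeR quasi-likelihood test with Benjamini-Hochberg adjustment). Of the other family members listed, Cebpe alone was called. That call was lost with no filter on low counts and after thinning (edgeR, adjusted p 0.0508 and 0.285). Cebpa, whose product pairs with C/EBPβ and shares its binding sites, averaged 148 ± 15.6 CPM in KO and 169.6 ± 16.9 CPM in WT (SD, n = 4 and 3; adjusted p 0.553). Cebpd and Cebpg differed by 0.05 and −0.07 on the log2 scale (adjusted p 0.868 and 0.78), and the stress-induced Ddit3 (CHOP) by 0.42 (adjusted p 0.0863). Cebpe, a factor of granulocyte maturation, was at 8.08, 6.24, 7.89 and 5.27 CPM in KO and 4.07, 3.80 and 2.48 CPM in WT, and its call (log2 fold change 0.99, SE 0.32, adjusted p 0.0354) was lost without any 1 of KO replicates 1, 2 and 3 or WT replicates 1, 2 and 3 (log2 fold change 0.79 to 1.12, adjusted p 0.0554 to 0.172).

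Across all 11136 genes tested, 2509 (22.5%) differed at an adjusted p under 0.05, 1344 higher in KO (12.1%) and 1165 lower (10.5%). The count was 1392 without WT replicate 3 and 1480 without WT replicate 2. At an unadjusted p under 0.05 there were 3894 genes, and the median log2 fold change of all genes was 0.00 (0.001). Of the 2509 called genes, 2425 (96.7%) had CPM ranges that did not overlap between the groups, against 40.6% of all genes tested, and 1078 differed by more than 2-fold.

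**Figure D1:**
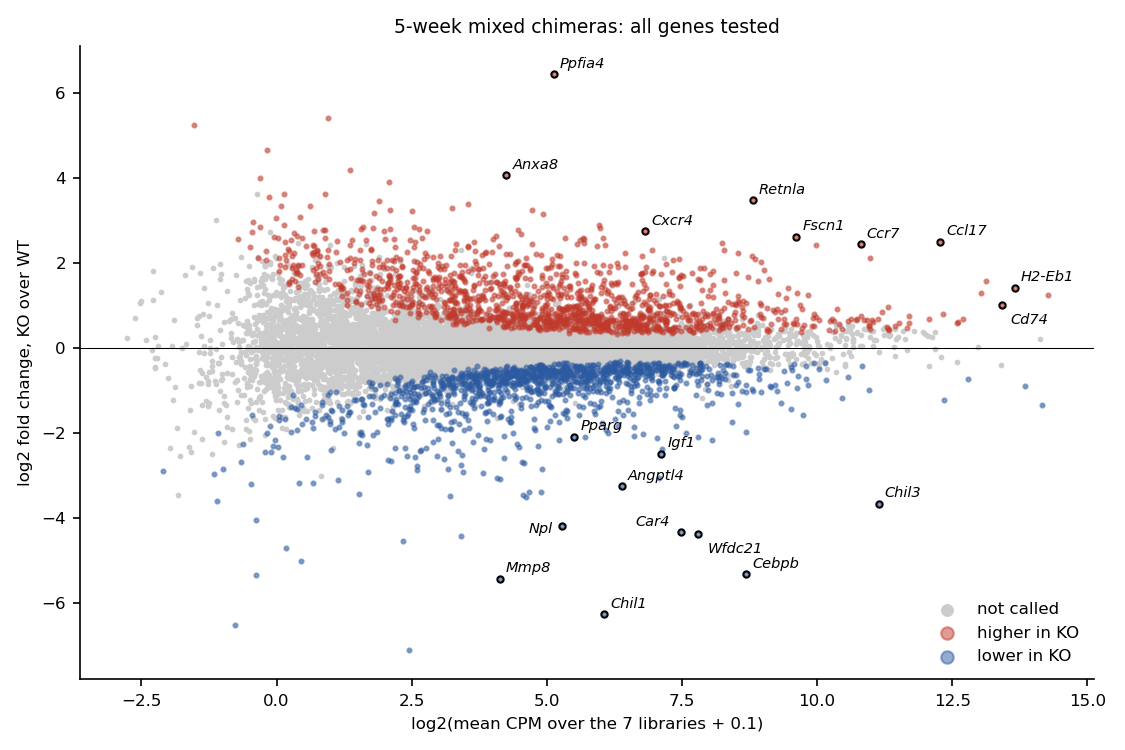
Log2 fold change of KO over WT at 5 weeks (y axis) against log2 of the mean CPM over the 7 libraries plus 0.1 (x axis), 1 point per gene tested, with genes past an adjusted p of 0.05 coloured by direction and some genes of the text named. Cebpb lies at −5.34, and 1344 genes lie above and 1165 below 0 among those called.

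The largest falls included genes of the alveolar macrophage and of innate defence. Among called genes with a mean of at least 20 CPM in one group and no overlap of CPM between the groups, the 10 largest falls were those of Chil1, Mmp8, Ctse, Wfdc21, Car4, Npl, Chil3, Fpr1, Cav1 and Fpr2. Chil1, a secreted chitinase-like protein, was at 0.571, 1.78, 2.56 and 3.19 CPM in KO, against 38.0, 189 and 229 CPM in WT (log2 fold change −6.27, SE 0.75, adjusted p 1.68e-04). Mmp8, a collagenase stored by neutrophils, was at 0.735, 0.446, 2.22 and 0.22 CPM in KO, against 20.8, 30.7 and 66.7 CPM in WT (log2 fold change −5.44, SE 0.78, adjusted p 4.01e-04). In both genes WT replicate 1 was the lowest WT library. The Mmp8 log2 fold change was −6.29 without KO replicate 3 and −4.84 without WT replicate 3. Car4, a membrane carbonic anhydrase that marks mature alveolar macrophages, was at 15.4, 13.9, 37.0 and 11.1 CPM in KO, against 209.5, 339 and 629 CPM in WT (log2 fold change −4.34, SE 0.64, adjusted p 6.29e-04). Wfdc21, a small secreted protease-inhibitor-like protein, was at 18.5, 22.1, 34.2 and 17.6 CPM in KO, against 304, 465 and 686 CPM in WT (log2 fold change −4.39, SE 0.46, adjusted p 5.58e-05). KO replicate 3 was the highest KO library in both genes. Fpr1 and Fpr2, receptors for bacterial formyl peptides, fell by 3.51 and 3.39 on the log2 scale (adjusted p 7.63e-04 and 0.0135), and Cav1, the caveolar coat protein, by 3.46 (adjusted p 4.38e-05). The Fpr2 call was lost without WT replicate 3 (log2 fold change −2.79, adjusted p 0.0649). It was also lost with replicate number as a block (edgeR, log2 fold change −3.17, adjusted p 0.0759). The neutrophil list, which holds Mmp8, summed to 21.9 to 71.9 CPM in KO and 66.8 to 165 CPM in WT, and its part in the falls of Mmp8, Fpr1 and Fpr2 was not tested. Ctse, an aspartic protease, and Npl, which breaks down sialic acid, fell by 4.43 and 4.21 (adjusted p 1.23e-06 and 5.12e-06); Ctse, Npl and Chil1 lie within 20 Mb of Ptprc.

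The 10 largest rises, under the same conditions, were those of Ppfia4, Anxa8, Retnla, Ikzf4, Clu, Asgr2, Aldh1a2, Lad1, Cxcr4 and Wnt11. Ppfia4, a liprin of cell adhesion sites, was at 50.1, 61.2, 54.9 and 75.2 CPM in KO, against 0.925, 0.597 and 0.525 CPM in WT (log2 fold change 6.43, SE 0.35, adjusted p 1.57e-08), with each WT library under 1 CPM. Retnla, a secreted protein of interleukin-4-activated macrophages, was at 642, 658, 1206 and 432 CPM in KO, against 66.2, 95.7 and 36.7 CPM in WT (log2 fold change 3.47, SE 0.75, adjusted p 0.0063). Cxcr4, the receptor for the chemokine CXCL12, was at 156, 192, 154 and 204 CPM in KO, against 24.0, 25.1 and 29.9 CPM in WT (log2 fold change 2.75, SE 0.22, adjusted p 1.10e-06). Of these genes, Retnla had the widest spread among KO libraries. Aldh1a2, which makes retinoic acid, rose by 2.81 (adjusted p 0.00332), Ikzf4, an Ikaros-family repressor, by 3.24 (adjusted p 4.08e-04), and the secreted ligand Wnt11 by 2.67 (adjusted p 0.00338). Clu, a secreted chaperone, rose by 3.13 (adjusted p 0.00456) and Anxa8, a calcium-dependent membrane-binding protein, by 4.07 (adjusted p 0.00871). Asgr2 and Lad1 rose by 2.88 and 2.77 (adjusted p 0.0105 and 0.0135); the Asgr2 call was lost without WT replicate 2 (log2 fold change 2.73, adjusted p 0.0557), and the Lad1 call without WT replicate 2 (log2 fold change 2.88, adjusted p 0.0518) and without WT replicate 3 (log2 fold change 2.53, adjusted p 0.0722). The log2 fold change of Anxa8 was 3.10 without KO replicate 1 and 5.74 without WT replicate 1, and that of Asgr2 was 2.27 and 3.83 without the same libraries. Ppfia4, Lad1 and Cxcr4 lie within 20 Mb of Ptprc.

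**Figure D2:**
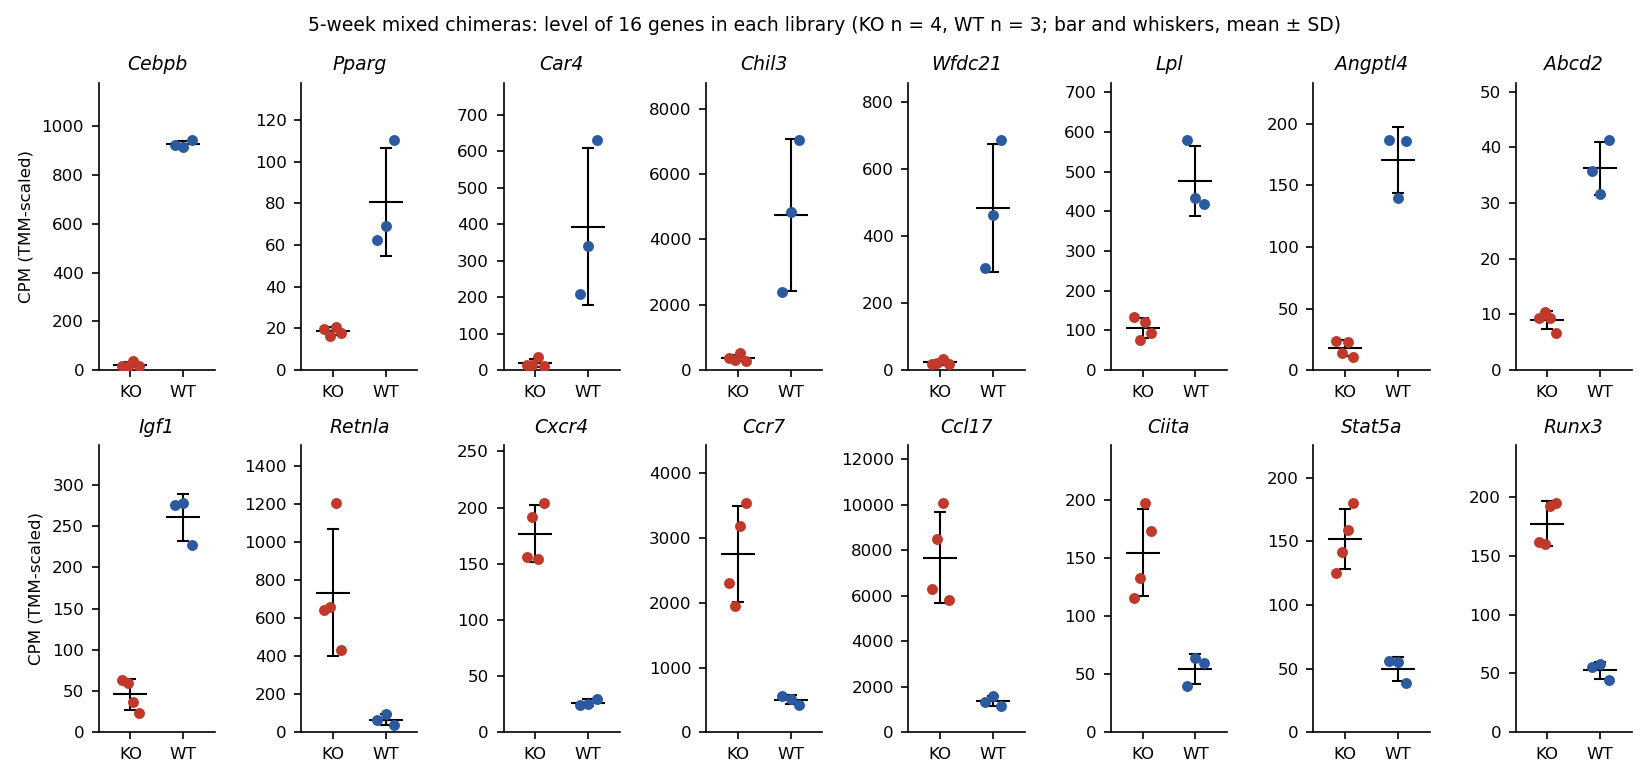
CPM of 16 genes in each 5-week library (y axis, linear from 0, with its own scale in each panel), KO left and WT right, 1 point per library with the mean and SD of each group. Several of the genes were chosen for CPM ranges that do not overlap. Pparg lies at 16.6 to 20.9 CPM in KO and 62.2 to 110.1 CPM in WT.

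Genes of the alveolar macrophage programme were mostly lower in KO. Of 33 tested, 20 fell and 3 rose, with a median log2 fold change of −1.12, the same with the scavenger receptor Marco at its bound, beside 0.00 over all genes. Pparg, the nuclear receptor gene needed for the surfactant-handling state (chromosome 6, 115360879 to 115490404), was at 19.9, 16.6, 20.9 and 17.7 CPM in KO, against 62.2, 69.2 and 110.1 CPM in WT (log2 fold change −2.10, SE 0.35, adjusted p 9.49e-04). The 4 KO libraries were close together and each lay below the lowest WT library. Chil3 (Ym1), a chitinase-like protein secreted in large amounts by alveolar macrophages, was at 385, 322, 512 and 276 CPM in KO, against 2386, 4853 and 7031 CPM in WT (log2 fold change −3.67, SE 0.51, adjusted p 3.05e-04). The ribonuclease Ear2, the lectin-like oxidised-LDL receptor Olr1 and the mannose receptor Mrc1 fell by 1.75, 1.49 and 1.27 on the log2 scale (adjusted p 0.00158, 0.00199 and 1.10e-04). Atp6v0d2, a proton pump subunit of lysosomes, and Perp, a membrane protein of cell junctions, fell by 1.42 and 2.59 (adjusted p 4.10e-04 and 0.00133). Il1rn, the interleukin-1 receptor antagonist, fell by 1.04 (adjusted p 0.00621).

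Some defining genes of these cells did not pass the test. Siglecf, the lectin by which mature alveolar macrophages are recognised, was at 11.8, 11.9, 12.8 and 14.5 CPM in KO and 14.3, 11.6 and 10.3 CPM in WT (log2 fold change 0.07, adjusted p 0.887), and the groups overlapped. Itgax, the gene of CD11c, averaged 843 ± 78.5 CPM in KO and 684 ± 74.9 CPM in WT (adjusted p 0.192). Marco had no count in any KO library and was at 1.91, 0.976 and 0.525 CPM in WT. With a floor of 3 counts over the KO group it was at least 14.9-fold lower in KO; its call (adjusted p 0.0305) was lost without any 1 of KO replicates 1, 2, 3 and 4 or WT replicates 1 and 2 (log2 fold change −6.55 to −5.89, adjusted p 0.0514 to 0.0747), where the fold changes are fitted values and no bounds. The Marco call was also lost with no filter on low counts, with replicate number as a block and after thinning (edgeR, adjusted p 0.0554, 0.0666 and 0.151). Of the alveolar macrophage genes 3 rose, and 1 without WT replicate 3. Bhlhe40, a repressor that supports macrophage self-renewal, was at 504, 429.9, 513 and 481 CPM in KO, against 273, 201 and 203 CPM in WT (log2 fold change 1.1, SE 0.16, adjusted p 2.19e-04). Epcam, an adhesion molecule that epithelium and some dendritic cells also carry, was at 18.4, 24.0, 21.8 and 19.6 CPM in KO and 10.7, 8.08 and 5.32 CPM in WT (log2 fold change 1.37, SE 0.38, adjusted p 0.0189); its call was lost without WT replicate 2 (log2 fold change 1.37, adjusted p 0.0722) and without WT replicate 3 (log2 fold change 1.14, adjusted p 0.0943). Fabp4, a fatty acid carrier, rose by 1.21 (adjusted p 0.0184), a call lost without WT replicate 3 (log2 fold change 1.05, adjusted p 0.0901).

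Genes of lipid uptake and storage fell in part. Of 29 tested members of the lipid and PPAR-target list, 10 fell and 2 rose (median log2 fold change −0.67), with 1 rise without WT replicate 3, and their summed level was 2358 to 2896 CPM in KO and 3498 to 3709 CPM in WT. Angptl4, a PPAR-induced inhibitor of lipoprotein lipase, was at 23.7, 13.6, 23.2 and 10.9 CPM in KO, against 187, 140.0 and 186 CPM in WT (log2 fold change −3.25, SE 0.38, adjusted p 9.61e-05). Lpl, the lipase that frees fatty acids from lipoproteins, was at 133, 76.9, 121 and 93.4 CPM in KO, against 579, 433 and 418 CPM in WT (log2 fold change −2.17, SE 0.34, adjusted p 6.40e-04). Both genes were low in all 4 KO libraries and high in all 3 WT libraries. The lipid droplet genes Cidec and Plin2 fell by 2.07 and 1.05 on the log2 scale (adjusted p 9.43e-04 and 0.00613). Agpat9 and Dgat2, which build triglyceride, fell by 2.79 and 1.07 (adjusted p 4.98e-04 and 1.90e-04), and Abhd5, which activates its breakdown, by 1.17 (adjusted p 5.58e-05). Among receptors, Msr1, which takes up modified lipoproteins, and Scarb1, which takes up HDL cholesterol, fell by 1.57 and 1.1 (adjusted p 8.95e-05 and 9.51e-04). The fatty acid transporter Cd36 ranged from 31.6 to 51.4 CPM in KO and from 16.1 to 47.3 CPM in WT (adjusted p 0.406), and these ranges overlapped. Lipe, the hormone-sensitive lipase, went the other way, at 68.2, 59.4, 72.4 and 95.0 CPM in KO, against 26.5, 32.3 and 36.3 CPM in WT (log2 fold change 1.22, SE 0.22, adjusted p 9.43e-04).

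Fatty acid oxidation genes fell by smaller steps. Of 26 tested, 14 fell and 0 rose (median −0.50); without WT replicate 3 the count was 9. Abcd2, which carries very long chains into peroxisomes, was at 9.30, 10.4, 9.45 and 6.70 CPM in KO, against 35.8, 31.7 and 41.2 CPM in WT (log2 fold change −2.01, SE 0.19, adjusted p 5.63e-06). The libraries of a group were close together and the groups were far apart. In mitochondria, Cpt1a, which admits fatty acids, fell by 0.96 on the log2 scale (adjusted p 0.0153), and the chain-shortening enzymes Hadh, Acaa2, Acads and Acadvl fell by 0.95, 0.83, 0.79 and 0.76 (adjusted p 0.00492, 0.00556, 0.00201 and 0.00556). The medium- and long-chain dehydrogenase genes Acadm and Acadl differed by 0.32 and 0.20 (adjusted p 0.125 and 0.293). Ppara, the receptor that drives this pathway in liver, had no count in any 5-week library.

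Cholesterol handling was divided. Of 21 tested genes of efflux and LXR targets, 8 fell and 3 rose (median −0.33). Lipa and Nceh1, which release cholesterol from its esters in lysosomes and in the cytoplasm, averaged 199 ± 17.6 and 74.7 ± 16.2 CPM in KO, against 427 ± 42.1 and 152 ± 4.99 CPM in WT (SD, n = 4 and 3; log2 fold changes −1.10 and −1.02, adjusted p 6.54e-05 and 0.00102). The nuclear receptor genes Nr1h3 (LXRα) and its partner Rxra fell by 0.82 and 1.16 (adjusted p 0.00262 and 0.00158), and Lpcat3, which remodels membrane phospholipids, by 0.70 (adjusted p 0.0118). Abca1, the main efflux pump, averaged 4.14 ± 1.50 CPM in KO and 4.30 ± 1.65 CPM in WT (adjusted p 0.923). Pltp, a phospholipid transfer protein, and Scd1, which desaturates fatty acids, rose by 1.27 and 2.03 (adjusted p 0.00182 and 0.00668). Of 24 tested genes of cholesterol synthesis, 3 fell and 1 rose (median −0.13). Over all genes tested, 10.5% fell and 12.1% rose. The falls were 1 without KO replicate 2, 3 or 4 or WT replicate 2 or 3 and 5 without WT replicate 1, and the rise was lost without KO replicate 2, 3 or 4 or WT replicate 1 or 2. Ebp, a sterol isomerase, fell by 0.45 (adjusted p 0.00789).

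**Figure D3:**
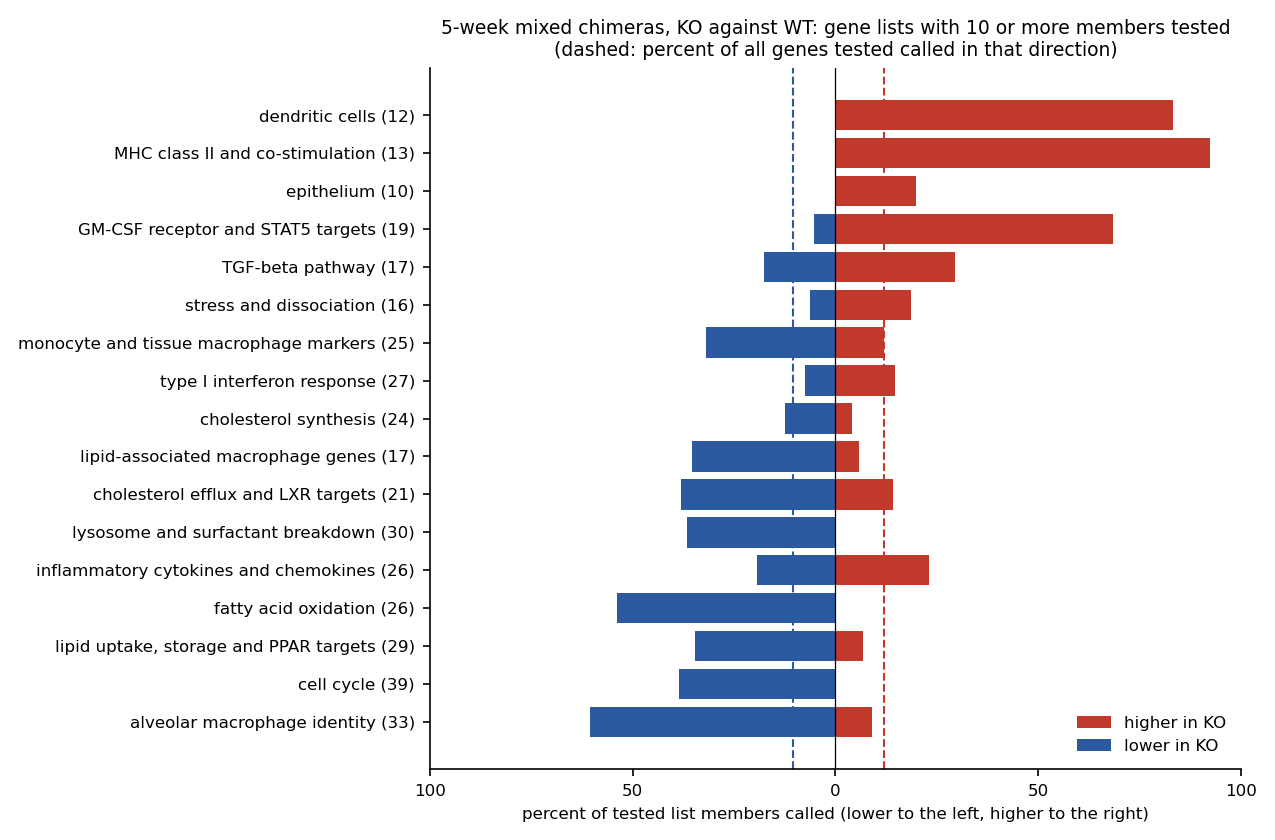
Percent of the tested members of each gene list that were called higher (right) or lower (left) in KO at 5 weeks, for lists with at least 10 members tested. Dashed lines mark the share of all genes tested, 12.1% higher and 10.5% lower; MHC class II and dendritic cell lists reach furthest to the higher side and the alveolar macrophage list to the lower side.

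C/EBPβ binding was compared with these changes from the authors' ChIP-seq peak lists of wild-type lavage alveolar macrophages (2 samples, 27105 and 22558 peaks, called per sample). Of the first list, 19114 peaks overlapped the second by at least 1 base, and these shared peaks were used. A shared peak lay within 10 kb of 74.4% of the genes that fell (865 of 1162, exact 95% interval 71.8 to 76.9%), 58.9% of those that rose (787 of 1336, 56.2 to 61.6%) and 57.7% of those not called (4967 of 8602, 56.7 to 58.8%). Expressed genes lie near peaks more often, so each was also split by mean level: in the lowest, middle and highest of 3 equal classes the shares were 70.1, 69.9 and 80.4% for genes that fell, 47.1, 55.2 and 66.9% for genes that rose and 49.8, 58.2 and 67.1% for genes not called. The intervals cover counting error only. Pparg, Car4, Chil3, Lpl, Angptl4 and Igf1 each had a shared peak within 10 kb, whereas Chil1, Cav1 and Ly6c2, which also fell, had none.

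Promoter sequences from RefSeq (GRCm38.p6) of 250 bases before to 50 bases from the annotated start were searched for the C/EBP dimer palindrome, written TTGCNNAA or TTNNGCAA, on both strands. The pattern occurs in 10.8% of all 32851 promoters, in 12.7% of those of genes that fell (115 of 907), 7.19% of those of genes that rose (73 of 1015) and 7.95% of those of genes not called (538 of 6770), and in 17.8% of the 2906 promoters that overlap a shared peak. A match is a description of the letters and not of a site in use. Counting the first listed start of each gene, 58 of 907 genes that fell held both a match and a shared peak in the window. So did 22 of 1015 genes that rose and 206 of 6770 genes not called. Printed here, with the matches in capitals, are the windows with both among the genes chosen by rule that fell, which are those of Pparg, Mmp8, Il6 and Ctsl. Pparg has 3 annotated starts, and the most downstream one, chr6:115421816-115422115 on the + strand, holds 2 matches, 215 and 16 bases before the start, whereas the first of the upstream starts, chr6:115360894-115361193, holds neither a match nor a shared peak. The Mmp8 window is chr9:7558179-7558478 (+), the Il6 window chr5:30012864-30013163 (+) and the Ctsl window chr13:64370471-64370770 (−), with matches 19, 128 and 114 bases before their starts.
Pparg, downstream start: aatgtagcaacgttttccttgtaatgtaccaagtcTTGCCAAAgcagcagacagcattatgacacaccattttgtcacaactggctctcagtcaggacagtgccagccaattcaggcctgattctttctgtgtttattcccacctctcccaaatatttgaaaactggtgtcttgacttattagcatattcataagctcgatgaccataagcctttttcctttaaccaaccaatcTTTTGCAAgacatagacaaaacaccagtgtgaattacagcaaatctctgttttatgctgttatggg
Pparg, upstream start: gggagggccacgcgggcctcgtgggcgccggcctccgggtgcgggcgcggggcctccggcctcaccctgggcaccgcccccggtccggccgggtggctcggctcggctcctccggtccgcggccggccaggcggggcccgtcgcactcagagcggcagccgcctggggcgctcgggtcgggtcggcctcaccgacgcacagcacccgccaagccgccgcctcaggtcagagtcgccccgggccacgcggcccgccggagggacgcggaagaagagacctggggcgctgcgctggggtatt
Mmp8: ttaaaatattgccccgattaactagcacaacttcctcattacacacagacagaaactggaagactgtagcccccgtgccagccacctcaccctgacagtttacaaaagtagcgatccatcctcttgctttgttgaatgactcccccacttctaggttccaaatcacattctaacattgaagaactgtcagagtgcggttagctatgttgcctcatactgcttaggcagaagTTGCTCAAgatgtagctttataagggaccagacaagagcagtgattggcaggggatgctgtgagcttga
Il6: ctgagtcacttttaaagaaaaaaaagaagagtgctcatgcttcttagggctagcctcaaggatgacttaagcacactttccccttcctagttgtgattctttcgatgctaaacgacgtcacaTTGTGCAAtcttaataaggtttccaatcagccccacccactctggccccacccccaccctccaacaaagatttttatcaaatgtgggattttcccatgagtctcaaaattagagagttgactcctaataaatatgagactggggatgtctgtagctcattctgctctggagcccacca
Ctsl: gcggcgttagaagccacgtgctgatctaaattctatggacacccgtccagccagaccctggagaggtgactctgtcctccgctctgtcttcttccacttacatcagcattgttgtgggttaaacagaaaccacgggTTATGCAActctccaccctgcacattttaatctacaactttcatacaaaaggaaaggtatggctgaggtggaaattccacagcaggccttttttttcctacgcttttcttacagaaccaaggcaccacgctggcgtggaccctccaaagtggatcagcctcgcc

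Antigen presentation genes rose nearly throughout. Of 13 tested genes of MHC class II and co-stimulation, 12 rose and 0 fell (median 1.41), and the list summed to 53710 to 93230 CPM in KO and 21560 to 42860 CPM in WT. Ciita, the transactivator that switches on the class II locus, was at 115, 132, 197 and 173 CPM in KO, against 39.8, 63.6 and 59.6 CPM in WT (log2 fold change 1.50, SE 0.25, adjusted p 6.15e-04). H2-Ab1, a class II chain, was at 7968, 10040, 11270 and 15810 CPM in KO, against 3417, 4124 and 6331 CPM in WT (log2 fold change 1.29, SE 0.26, adjusted p 0.00226). The groups did not overlap in either gene. The class II chains H2-Aa and H2-Eb1 rose by 1.24 and 1.41 (adjusted p 0.00182 and 0.00359), and the peptide-loading genes H2-DMb2, H2-Oa and H2-Ob by 1.92, 1.76 and 1.76 (adjusted p 4.85e-05, 0.00182 and 6.30e-04). The co-stimulatory receptor Cd40 and ligand Cd86 rose by 1.69 and 0.67 (adjusted p 9.01e-04 and 0.00449). H2-DMb1 did not pass (0.29, adjusted p 0.424). Dendritic cells express these genes strongly, and the dendritic cell list moved the same way, with 4407 to 7469 CPM in KO and 1250 to 1429 CPM in WT; its part in the class II result was not tested.

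GM-CSF signalling genes rose as well. Of 19 tested receptor genes and STAT5 targets, 13 rose and 1 fell (median 0.62). The receptor chain Csf2ra did not pass in the main fit: it averaged 329 ± 27.0 CPM in KO and 260.2 ± 10.9 CPM in WT (adjusted p 0.0612). Csf2ra passed in DESeq2 (adjusted p 0.0161). In edgeR it passed with other scaling (adjusted p 0.0465) and with the 7 libraries at 5 weeks fitted alone (0.0304). Stat5a, the transcription factor downstream of the receptor, was at 126, 141, 159 and 180.4 CPM in KO, against 55.8, 55.0 and 38.8 CPM in WT (log2 fold change 1.6, SE 0.24, adjusted p 2.88e-04). Jak2, the receptor's kinase, was at 167, 201, 286 and 229 CPM in KO, against 89.0, 118 and 104 CPM in WT (log2 fold change 1.09, SE 0.20, adjusted p 0.00123). Each KO library lay above every WT library in both genes. The feedback inhibitors Cish and Socs1 rose by 1.06 and 1.58 (adjusted p 0.00153 and 2.17e-04), the kinase Pim1 by 0.62 (adjusted p 0.00134) and the survival gene Bcl2a1a by 0.69 (adjusted p 5.51e-04). Id2 and Irf4, transcriptional regulators that dendritic cells also need, rose by 1.62 and 1.99 (adjusted p 2.64e-04 and 1.10e-04). The cytokine gene Osm was the one member that fell (−0.91, adjusted p 0.00967). Its call was lost with replicate number as a block (edgeR, log2 fold change −0.84, adjusted p 0.0649).

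Chemokine and cytokine genes moved in both directions. Of 26 tested, 6 rose and 5 fell (median −0.33), and 3 rose without WT replicate 2 or without WT replicate 3. Ccl17, a ligand of CCR4 that attracts T cells, was at 6300, 8498, 10100 and 5829 CPM in KO, against 1356, 1583 and 1147 CPM in WT (log2 fold change 2.50, SE 0.27, adjusted p 2.40e-05). Ccl22, the second CCR4 ligand, rose by 2.11 and Cxcl16, the CXCR6 ligand, by 1.00 (adjusted p 0.00264 and 0.0033). Il6, an acute inflammatory cytokine, was at 31.3, 24.9, 21.9 and 7.47 CPM in KO, against 135, 83.2 and 61.1 CPM in WT (log2 fold change −2.12, SE 0.41, adjusted p 0.00251). The neutrophil attractants Cxcl1 and Cxcl2 fell by 1.35 and 0.99 (adjusted p 0.007 and 0.00772), and the CC chemokine Ccl6 by 1.24 (adjusted p 4.70e-04). Il1b and Tnf did not pass (−0.43 and −0.58, adjusted p 0.19 and 0.186).

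In the TGF-β pathway, which alveolar macrophages need to mature, 5 of 17 tested genes rose and 3 fell (median 0.38), and 1 fell without WT replicate 3. Runx3, a transcription factor used by dendritic and T cells, was at 162, 159.9, 192 and 195 CPM in KO, against 55.7, 58.0 and 44.5 CPM in WT (log2 fold change 1.75, SE 0.19, adjusted p 2.48e-05). The inhibitors Smad7 and Skil rose by 1.39 and 0.50 (adjusted p 7.86e-04 and 0.00561), while their relative Ski fell by 0.67 (adjusted p 0.00867). The ligand Tgfb1 differed by 0.38 (adjusted p 0.165) and passed only with the 7 libraries at 5 weeks fitted alone (edgeR, adjusted p 0.0263).

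Genes of monocytes and of other tissue macrophages were mixed. Of 25 tested, 8 fell and 3 rose (median 0.15), and the falls were 4 without WT replicate 2 and 5 without KO replicate 2 or KO replicate 3. Rises were 1 without KO replicate 2 or without any 1 of the WT replicates. Ly6c2, a surface marker of inflammatory monocytes, was at 1.39, 1.45, 3.67 and 7.69 CPM in KO, against 8.26, 20.7 and 31.9 CPM in WT (log2 fold change −2.52, SE 0.60, adjusted p 0.00825), and the log2 fold change was −3.23 without KO replicate 4. Mertk, a receptor for dying cells, and Pf4, a chemokine of tissue macrophages, fell by 1.16 and 1.07 (adjusted p 8.06e-04 and 0.00561). The lectin Mgl2 was at 694, 489, 599.7 and 466 CPM in KO, against 149, 158 and 52.5 CPM in WT (log2 fold change 2.23, SE 0.37, adjusted p 8.38e-04); it marks a subset of dendritic cells too. C1qa, a complement chain, averaged 2222 ± 423 CPM in KO and 1640 ± 254 CPM in WT (SD, n = 4 and 3; adjusted p 0.503), and the ranges overlapped.

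Among genes of lipid-associated macrophages, 6 of 17 tested fell and 1 rose (median −0.21); the rise was lost without WT replicate 3. Igf1, a growth factor of resident macrophages, was at 64.2, 59.4, 37.1 and 23.9 CPM in KO, against 276, 279 and 227 CPM in WT (log2 fold change −2.50, SE 0.40, adjusted p 7.43e-04). Spp1 (osteopontin) fell by 1.99 (adjusted p 0.00465), whereas the lipid receptor Trem2 and the lysosomal glycoprotein Gpnmb differed by 0.29 and 0.23 (adjusted p 0.315 and 0.484). Of 30 tested lysosomal genes, 11 fell and 0 rose (median −0.33); 6 fell without KO replicate 4, without WT replicate 2 or without WT replicate 3. Ctsc, the protease that activates granule enzymes, was at 408, 445, 435 and 401 CPM in KO, against 873, 1160 and 1434 CPM in WT (log2 fold change −1.45, SE 0.18, adjusted p 5.58e-05). The cysteine protease Ctsl and the membrane protein Scarb2 fell by 0.89 and 0.79 (adjusted p 4.49e-04 and 3.25e-04).

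Proliferation genes fell in part. Of 39 tested cell cycle genes, 15 fell and 0 rose (median −0.78), with 9 falls without WT replicate 2. Under the settings other than leaving out libraries, 11 to 28 fell. Ccna2, the S-phase cyclin, was at 7.26, 5.24, 6.56 and 5.16 CPM in KO, against 20.2, 17.6 and 16.3 CPM in WT (log2 fold change −1.57, SE 0.35, adjusted p 0.00449). Bub1b, of the spindle checkpoint, and Tk1, which makes thymidine nucleotides, fell by 1.32 and 1.39 (adjusted p 3.05e-04 and 0.00182), and the mitotic genes Ccnb2 and Kif23 by 1.64 and 0.95 (adjusted p 0.00712 and 0.00632). Interferon-induced genes were not of one direction: 4 of 27 tested rose and 2 fell (median −0.01), beside 12.1% and 10.5% of all genes tested. The number of rises was 1 without KO replicate 4 or WT replicate 2 and 2 without KO replicate 3, WT replicate 1 or WT replicate 3; the falls were 1 without KO replicate 1, 2 or 3 or WT replicate 2 and 0 without WT replicate 3. Ifitm3, a barrier to virus entry, was at 218, 133, 164 and 111 CPM in KO, against 58.8, 64.1 and 54.4 CPM in WT (log2 fold change 1.40, SE 0.18, adjusted p 8.95e-05). Of 16 tested stress and dissociation genes, 3 rose and 1 fell, beside the same shares of all genes tested. Without WT replicate 1 or 2, 1 rose. Fos and Jun, which digestion of tissue induces, differed by −0.23 and 0.15 (adjusted p 0.231 and 0.365).

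More genes passed the test at 10 weeks after transfer in the joint fit of the 14 chimera libraries. With each week fitted alone the counts were close, 3686 of 10969 genes at 5 weeks and 3749 of 10166 at 10 weeks. In the joint fit 5072 of 11136 genes (45.5%) were called at 10 weeks, 2723 higher in KO (24.5%) and 2349 lower (21.1%). Mitochondrial genes took 0.421 to 0.898% of counts in KO and 0.147 to 0.185% in WT at 10 weeks, and 8 of 16 stress and dissociation genes rose and 0 fell, with sums of 12420 to 13720 CPM in KO and 8368 to 9780 CPM in WT; their part in the 10-week result was not tested. Of the genes that rose at 5 weeks, 899 also rose at 10 weeks, which is 66.9% of the 5-week and 33.0% of the 10-week rises. Of those that fell, 768 also fell at 10 weeks (65.9% and 32.7%), and 42 of the 5-week rises and 48 of the falls were called the other way. The comparisons share no library, but both come from the same fit and set the same 2 kinds of donor against each other. All 10 of the largest falls and all 10 of the largest rises at 5 weeks were called in the same direction at 10 weeks. Among them, Chil1, Ctse, Npl, Ppfia4, Lad1 and Cxcr4 lie near Ptprc, where the donors differ in strain at both times. The knockout effect differed between the weeks, by a test of the difference itself, for 1508 genes (13.5%), 665 with a higher log2 fold change at 5 weeks (5.97%) and 843 with a lower one (7.57%). That count was 906 without 5-week WT replicate 2 and 2918 without 10-week KO replicate 1, the library that stood apart from the other 10-week KO libraries on the first principal component. Among called genes with a mean of at least 20 CPM in a group, the 5 with the largest positive difference were Fam89a, Epcam, Mcam, Rpl3l and Trp53i11 (5.62, 5.45, 5.36, 5.25 and 4.90) on the log2 scale. Rpl3l had no count in 10-week KO replicates 2 and 3, and Mcam was at 0 and 0.145 CPM there, so fitted differences of these genes are no bounds. Without 10-week KO replicate 1 the fitted difference was 6.07 for Epcam, 7.56 for Mcam and 10.71 for Rpl3l, and without 10-week KO replicate 2 it was 4.79, 4.54 and 4.43. Those with the largest negative difference were the neuropeptide gene Npy, the muscle cytochrome oxidase subunit Cox6a2, Apoe, the cytokine Il1a and the secreted kinase Pkdcc (−5.71, −4.41, −3.97, −3.80 and −3.34). The difference for Npy was −6.42 without 5-week KO replicate 1 and −4.56 without 10-week KO replicate 3, and without 10-week WT replicate 1 that for Cox6a2 was −6.74. Of these 10 genes, Epcam and Trp53i11 were called at 5 weeks and all were called at 10 weeks.

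Part of the alveolar macrophage programme differed more between KO and WT at 10 weeks. Of 33 tested members, 24 fell and 1 rose at 10 weeks. By the test of the difference, the log2 fold change was higher at 5 weeks for 11 and lower for 2. Epcam, among the 11, was called higher in KO at 5 weeks. Siglecf at 10 weeks was at 17.4, 5.00 and 17.6 CPM in KO, against 83.3, 93.0, 126 and 114 CPM in WT, and the log2 fold change at 5 weeks exceeded that at 10 weeks by 3.08 (adjusted p 4.48e-04). Krt79, a keratin of mature alveolar macrophages, averaged 5.77 ± 2.34 CPM in KO and 15.5 ± 5.41 CPM in WT at 5 weeks and 6.45 ± 2.99 CPM in KO and 328 ± 41.1 CPM in WT at 10 weeks (difference of log2 fold changes 4.32, adjusted p 1.48e-04). Fabp1, a fatty acid carrier, averaged 6.32 ± 1.25 CPM in KO and 12.9 ± 0.958 CPM in WT at 5 weeks and 5.38 ± 3.74 CPM in KO and 262 ± 62.8 CPM in WT at 10 weeks (4.66, adjusted p 2.63e-04; 4.06 without 10-week KO replicate 2). In these 3 genes the WT level was far higher at 10 weeks, and the KO level was low at both times. Across WT libraries alone, 2086 genes (18.7%) differed between 10 and 5 weeks, 878 higher at 10 weeks (7.88%) and 1208 lower (10.8%), and 24 of 33 alveolar macrophage genes were higher at 10 weeks and 0 lower (median 1.31). Dendritic cell genes went the other way in WT, with 11 of 12 lower at 10 weeks, and their sum was 792 to 3309 CPM in KO and 329 to 526 CPM in WT at 10 weeks. Pparg, Car4, Chil3, Lpl and Angptl4 did not pass the test of the difference between weeks (adjusted p 0.179, 0.594, 0.241, 0.367 and 0.643).

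Genes of monocyte-derived and lipid-associated macrophages behaved in the opposite way. At 10 weeks 20 of 25 monocyte and tissue macrophage genes and 10 of 17 lipid-associated genes rose, and the 5-week effect was lower by the test of the difference for 17 and 12 of them. Apoe, the main apolipoprotein of macrophages, was at 3784, 6665, 3987 and 7681 CPM in KO and 5711, 5833 and 9498 CPM in WT at 5 weeks, and at 38450, 69980 and 48990 CPM in KO and 9635, 3767, 1350 and 2230 CPM in WT at 10 weeks (−3.97, adjusted p 0.00429). The groups overlapped at 5 weeks, and at 10 weeks they were apart. Without 10-week WT replicate 1 the Apoe difference was −4.76. Trem2 averaged 522 ± 129.9 CPM in KO and 426 ± 19.2 CPM in WT at 5 weeks and 1267 ± 156 CPM in KO and 223 ± 55.0 CPM in WT at 10 weeks (−2.21, adjusted p 1.83e-04). Msr1 fell at 5 weeks and rose by 1.16 at 10 weeks (adjusted p 2.84e-04; −2.73, adjusted p 5.98e-05), and the neutrophil attractant Cxcl1 did likewise (1.88, adjusted p 2.51e-04; −3.22, adjusted p 4.88e-04). Csf1, the growth factor that sustains macrophages, differed by 0.40 at 5 weeks (adjusted p 0.178) and rose by 3.65 at 10 weeks (adjusted p 3.10e-08; −3.25, adjusted p 7.47e-06). Ciita and H2-DMb2 had the larger effect at 5 weeks (1.85 and 1.95, adjusted p 0.00314 and 0.00135).

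**Figure D4:**
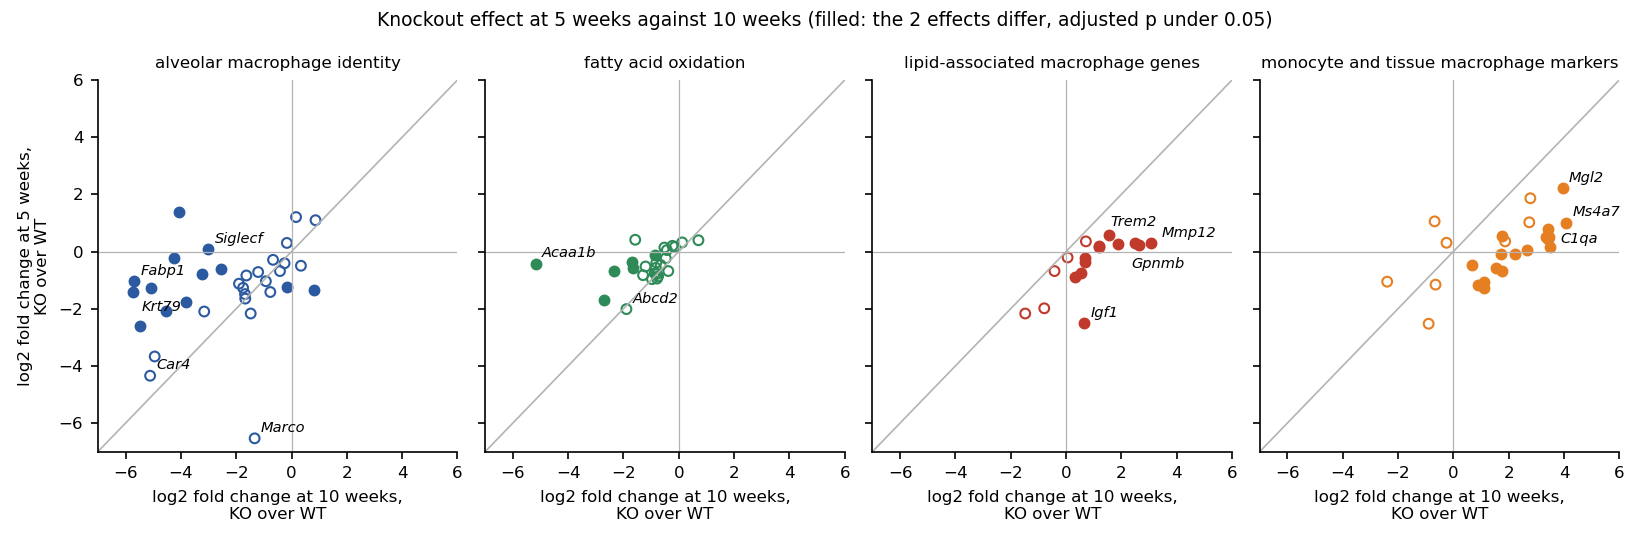
Log2 fold change of KO over WT at 5 weeks (y axis) against that at 10 weeks (x axis) for the tested members of 4 gene lists, 1 point per gene, filled where the difference between weeks was called. Alveolar macrophage and fatty acid oxidation genes lie mainly to the left of 0 on the 10-week axis, and most monocyte and lipid-associated macrophage genes to the right of it.

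In lavage alveolar macrophages of CD11cCre mice that were not chimeras, counted in a separate table and fitted apart, 1677 of 9992 genes (16.8%) were called, 1030 higher in KO (10.3%) and 647 lower (6.48%). That count was 1095 without WT replicate 1 and 2688 without KO replicate 4. Of the 5-week genes tested in both, 215 rose in both (21.4% of the 5-week and 21.8% of the lavage rises) and 193 fell in both (17.3% and 30.3%), while 55 rises and 89 falls were called the other way. Of the 10 largest 5-week falls, 8 were tested there, with 6 called in the same direction and 0 in the other, and of the 10 largest rises 4 were tested, with 1 called in each direction. Cebpb averaged 56.9 ± 24.9 CPM in KO and 625 ± 51.6 CPM in WT there. Of 33 alveolar macrophage genes tested, 12 fell and 9 rose, with a median of −0.19, beside −1.12 in the 5-week chimera. Car4, Chil3 and Fpr1 fell by 4.90, 2.04 and 3.39 (adjusted p 9.33e-08, 1.34e-05 and 0.0256), and Pparg by 0.51 (adjusted p 0.00821). Of the 12 class II and co-stimulation genes tested, 10 rose there (median 2.70), and Ccl17 rose by 6.96 (adjusted p 9.33e-08). Of 26 fatty acid oxidation genes, 3 fell and 3 rose, with a median of −0.03. Lpl rose there by 0.45 (adjusted p 0.0365) and Ppfia4 fell by 0.62 (adjusted p 0.0209), both opposite to the 5-week chimera. The difference between these experiments was not tested.

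Genes near Ptprc were called more often than the rest of the genome. Within 20 Mb of Ptprc (chromosome 1, 138062859 to 138175756, GRCm38), where the WT donor strain carries another strain's chromosome, 59 of 136 tested genes were called at 5 weeks (43.4%), 26 higher and 33 lower in KO. Outside that window the share was 22.2% (2439 of 10964 genes), and on the rest of chromosome 1 it was 20.6% (104 of 506 genes). At 10 weeks the window held 75 called genes (55.1%, beside 45.5% of all genes tested). In the CD11cCre lavage comparison it held 33 of 117 (28.2%, beside 16.8% of all genes tested there). Chil1, Ctse, Npl, Ppfia4, Lad1 and Cxcr4 lie in the window, as does Marco. Npl averaged 5.40 ± 1.67 CPM in KO and 6.52 ± 0.2 CPM in WT in the lavage cells (adjusted p 0.503) and Cxcr4 32.2 ± 13.7 CPM in KO and 21.2 ± 0.102 CPM in WT (adjusted p 0.121), so neither was called there. Marco fell there, at 69.0 ± 50.5 CPM in KO and 752 ± 114 CPM in WT (log2 fold change −3.45, adjusted p 0.0048), and Chil1, Ctse and Lad1 were below the filter on low counts. Knockout and strain of the interval cannot be told apart for these genes in the chimera. Leaving the window out, 2440 genes were called at 5 weeks.

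**Figure D5:**
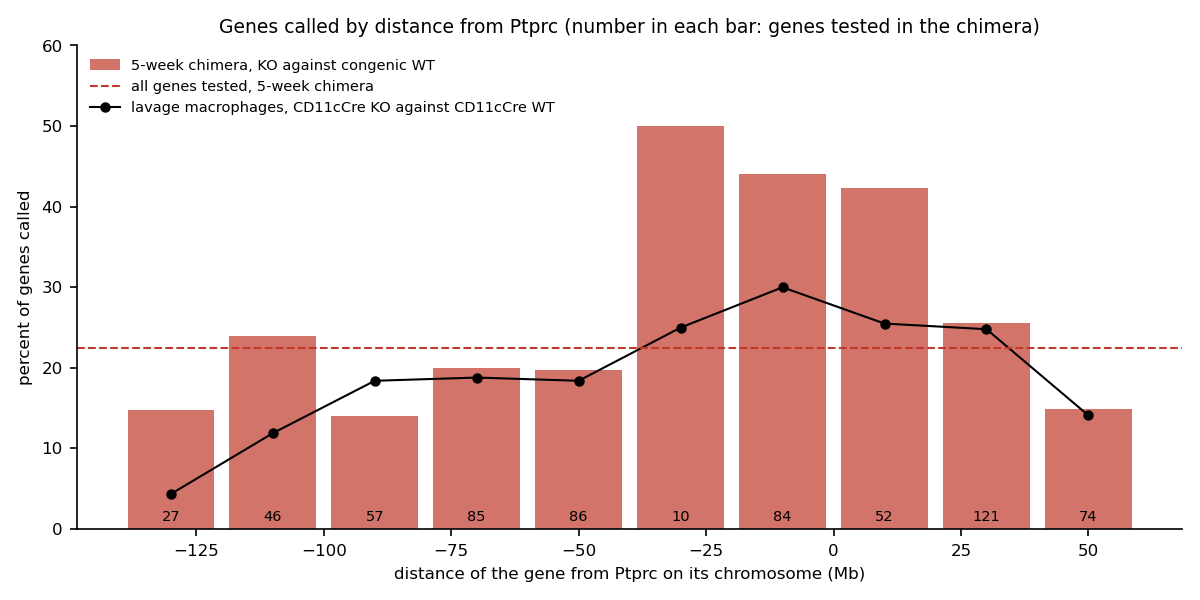
Percent of tested genes on chromosome 1 called in KO against WT (y axis) by distance from Ptprc in bins of 20 Mb (x axis), with bars for the 5-week chimera, a line for the CD11cCre lavage comparison and a dashed line at the 22.5% of all genes in the chimera. The bins on either side of Ptprc reach 44.0% and 42.3% in the chimera, and the bin from 40 to 20 Mb before it holds only 10 tested genes. In the lavage comparison the same bins on either side reach 30.0% and 25.5%, where 16.8% of all genes were called (no line drawn).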

How the data were processed

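RNA was measured in bulk by MARS-seq, which tags the 3′ ends of mRNA and amplifies by in vitro transcription, with up to 8 barcoded samples pooled, per the labels' protocols. The authors deposited raw counts per gene; STAR 2.6.1a, featureCounts 1.6.3 and GRCm38 are named in the submitters' processing notes, and the strand setting and any collapsing of molecular barcodes are not given in the sources used here. If strand was ignored, overlapping genes share counts. The deposited ChIP-seq peak lists give −log10 q values per peak (lowest 5.02 and 5.0), and MACS2 2.2.7.1 is among the tools of the submitters' processing notes.

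The 14 chimera libraries were fitted together with edgeR 4.0.16 in R 4.3.3: TMM scaling, filterByExpr with a minimum count of 10, robust quasi-likelihood tests and Benjamini-Hochberg adjustment over all 11136 genes, without a replicate block. Genes are called at an adjusted p under 0.05. CPM values are TMM-scaled. The 7 CD11cCre libraries, in another table, were fitted apart. Named genes were Cebpb, the 10 largest rises and falls with a mean of at least 20 CPM and no overlap between the groups (predicted, mitochondrial and sex chromosome genes left out), the 5 largest interactions each way, a fixed set of 22 genes and up to 4 called genes a list; further list members were chosen after their values were seen. The members and lists were chosen with earlier results of these data known.

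On simulated 5-week counts with 200 changed genes, edgeR recovered 6% of those changed by 0.5, 70% by 1, 94% by 2 and 100% by 3 on the log2 scale, with 5 false calls among 10761 genes. The changed genes were drawn from those above a minimum mean count, and all others were left unchanged. In the data 22.5% of genes were called, so recovery there can differ. DESeq2 1.42.0, other filters and scaling, thinning and leaving out libraries were alternatives. Of 22050 genes, 697 had no match in the RefSeq table, and for 27 symbols with several entries the one with most counts was used. Some genes are not reported here.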

Additional observations from a re-analysis of the deposited data

Results flagged for a closer look

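The knockout effect of 52 genes named above differed between 5 and 10 weeks by a test of the difference itself (edgeR quasi-likelihood, adjusted p 7.47e-06 to 0.0447). The values are log2 fold changes of KO over WT at 5 weeks minus those at 10 weeks. Alveolar macrophage and lipid genes with the higher value at 5 weeks were Epcam (5.45), Fabp1 (4.66), Krt79 (4.32), Siglecf (3.08), Perp (2.89), Cidec (2.47), Scd1 (2.19), Ear2 (2.06), Scarb1 (1.52) and Dgat2 (1.16). Antigen presentation, dendritic cell and GM-CSF genes with the higher value at 5 weeks were H2-Oa (2.25), H2-DMb2 (1.95), Ciita (1.85), H2-DMb1 (1.38), Bcl2a1a (1.13) and Stat5a (1.08). Cell cycle genes with the higher value at 5 weeks were Ccnb2 (2.58), Kif23 (1.95), Bub1b (1.78) and Tk1 (1.52). Monocyte and lipid-associated macrophage genes with the lower value at 5 weeks were Igf1 (−3.15), C1qa (−2.99), Gpnmb (−2.42), Trem2 (−2.21), Pf4 (−2.16), Mgl2 (−1.73) and Ctsl (−1.22). Chemokine and cytokine genes with the lower value at 5 weeks were Il1a (−3.80), Csf1 (−3.25), Cxcl1 (−3.22), Il6 (−2.56) and Tnf (−1.69). The same held for Cxcl2 (−1.52), Cxcl16 (−1.10), Ccl6 (−1.09) and the interferon-induced Ifitm3 (−1.45). Of the antigen presentation and co-stimulation genes, Cd40 had the lower value at 5 weeks (−1.51). Other listed genes with the lower value at 5 weeks were Apoe (−3.97), Abca1 (−2.84), Msr1 (−2.73), Runx3 (−2.35), Smad7 (−1.27) and Fos (−0.84). The rest were Npy (−5.71), Cox6a2 (−4.41), Pkdcc (−3.34), Ctse (−2.32), Ddit3 (−0.97), Trp53i11 (4.90), Rpl3l (5.25), Mcam (5.36) and Fam89a (5.62). The calls of Ccl6, Ccnb2, Cd40, Ctse, Cxcl16, Mgl2, Scd1, Smad7, Stat5a, Tk1 and Tnf were lost without at least 1 of the 14 libraries (adjusted p up to 0.113). Left-out libraries moved the difference of further genes: Ccnb2 was 4.15 without 10-week KO replicate 1, Perp was 3.60 without 10-week KO replicate 1, Perp was 2.24 without 10-week KO replicate 2, Scd1 was 2.95 without 10-week KO replicate 3 and C1qa was −3.60 without 10-week WT replicate 1.

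In 19 of 280 groups of 4 libraries checked, 1 library lay further from the rest than Dixon's 95% critical value allows, where chance alone marks about 1 group in 20. In KO at 5 weeks, Acaa2 was at 55.5 CPM in replicate 4 and 68.5 to 70.9 CPM in the others, Acads was at 34.6 CPM in replicate 4 and 40.6 to 41.7 CPM in the others, Anxa8 was at 77.7 CPM in replicate 1 and 10.1 to 19.7 CPM in the others and Car4 was at 37.0 CPM in replicate 3 and 11.1 to 15.4 CPM in the others. Among KO libraries at 5 weeks, Ccnb2 was at 6.15 CPM in replicate 4 and 11.6 to 12.6 CPM in the others, Cebpb was at 36.8 CPM in replicate 3 and 18.1 to 18.6 CPM in the others and Cxcl1 was at 243 CPM in replicate 1 and 111 to 131 CPM in the others. Of the same libraries, Fam89a was at 8.79 CPM in replicate 4 and 4.12 to 4.67 CPM in the others, Pim1 was at 565 CPM in replicate 1 and 486 to 496 CPM in the others and Pkdcc was at 12.7 CPM in replicate 3 and 8.32 to 8.81 CPM in the others. Also, Plin2 was at 402 CPM in replicate 1 and 318 to 322 CPM in the others and Tnf was at 214 CPM in replicate 1 and 153 to 159 CPM in the others. In WT at 10 weeks, Cebpg was at 116 CPM in replicate 1 and 88.7 to 91.1 CPM in the others, Clu was at 3.46 CPM in replicate 2 and 0.594 to 0.813 CPM in the others, Gpnmb was at 326 CPM in replicate 1 and 229 to 241 CPM in the others and H2-DMb1 was at 751 CPM in replicate 3 and 948 to 987 CPM in the others. Among WT libraries at 10 weeks, Jak2 was at 35.6 CPM in replicate 4 and 30.1 to 30.9 CPM in the others, Mcam was at 18.9 CPM in replicate 3 and 32.6 to 35.4 CPM in the others and Scd1 was at 31.4 CPM in replicate 3 and 11.8 to 14.1 CPM in the others.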

How the results depend on the processing

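The 5-week comparison rested on 4 KO and 3 WT libraries, with the spread estimated over all 14 chimera libraries, those at 10 weeks included. Against 2509 genes called there, DESeq2 called 2832, and other scaling, filters, thinning and omission of the Ptprc window (chosen after seeing the data) gave 2097 to 2519. The 7 libraries at 5 weeks fitted alone gave 3686, and the 7 at 10 weeks fitted alone gave 3749 (5072 in the joint fit). Leaving out 1 library gave 1392 to 2232 genes at 5 weeks, 4403 to 5876 at 10 weeks, 906 to 2918 for the difference between weeks, 1095 to 2688 in CD11cCre lavage cells and 113 to 154 list members at 5 weeks (169 with all libraries). Lowest at 5 weeks were the counts without WT replicate 3 and WT replicate 2 (1480). DESeq2 called 1955 interactions, against 1508.

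With replicate number as a block, 2011 genes were called at 5 weeks, 4496 at 10 weeks, 1015 for the difference, 2667 in lavage cells (1677 without the block) and 160 list members. The labels do not say that numbers pair libraries. Deviations of same-numbered KO and WT libraries from their group means correlated at 0.016 to 0.354 at 5 weeks, 0.098 to 0.124 at 10 weeks and 0.026 to 0.152 in lavage cells. At 5 weeks the pair numbered 1 was the highest of all (0.354), while the pairs numbered 2 and 3 lay below the highest differently numbered pair (0.208). Not every pair exceeded 0.1 in any of these, so numbers were not taken as pairs. At 10 weeks all 3 same-numbered pairs exceeded every other pair (highest 0.031), a hint of pairing in the data that the labels do not give.

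With a peak of either ChIP sample within 10 kb, the shares near a peak were 74.3% of genes that rose, 85.9% of genes that fell and 74.1% of genes not called. With a peak of both samples within 1 kb of a gene end they were 25.1, 39.3 and 28.0%. These settings changed the peaks counted, the distance and, for the 1 kb setting, the part of the gene measured from, so that peaks inside genes dropped out. The share called near Ptprc was 44.9% within 10 Mb and 35.6% within 40 Mb. Of 1134 values of named genes at 5 weeks with 1 library left out, 83 lost the call, 2 gained it and 0 reversed; of 1285 under the other settings, 18 lost it, 17 gained it and 0 reversed.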
